A study of Mus musculus with 6 samples.

Results

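The cytosolic ribosomal protein genes form the group described here, 86 of the 55298 genes of the count table. They are the protein-coding genes whose symbol is Rpl or Rps followed by a number, together with Rplp0, Rplp1, Rplp2, Rpsa and Fau, and 17 protein-coding genes of similar name were left out, namely 10 Rps6k kinases, Rps27rt and 6 genes with -ps in the symbol. By their symbols 34 belong to the small subunit and 52 to the large subunit. The rule also takes in Rps19bp1, a binding partner of Rps19 and regulator of the deacetylase Sirt1 that is no ribosomal protein, and Rpl7l1, a nucleolar relative of Rpl7.

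Total RNA was sequenced from small intestine epithelial cells of mice that all had collagen-induced arthritis, joint inflammation brought on by immunising the animals with collagen. One group of 3 libraries carries the strain label HIF2[alpha] +/- [delta]IEC, the other group of 3 the label HIF2[alpha] +/- F/F of littermate controls, and the labels write +/- in both. Epas1 is the gene of HIF2α, the oxygen-regulated part of a transcription factor that accumulates in hypoxia. The Cre driver, the ages of the mice and whether each library came from its own mouse are not stated, so the spread between libraries may be technical in part.

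Epas1 was counted higher in the libraries labelled knockout. It stood at 44.2, 25.9 and 31.9 CPM (TMM-scaled read counts per library total) in the libraries labelled knockout, against 12.2, 19.4 and 17.5 CPM in control libraries. Its log2 fold change was 1.06 (SE 0.28), called higher, as were 37.2% of all tested genes. With the correction described below it was 1.003 (SE 0.24), called higher as were 14.3% of all genes. That corrected call was lost without knockout library 1. Counts per gene do not show whether a part of Epas1 was deleted, and why it was higher was not tested. Directions below are those of the libraries labelled knockout relative to control libraries. The libraries held 28937122 to 38454620 counted reads. Epithelial marker genes summed to between 9921 and 12860 CPM in libraries labelled knockout and to between 18580 and 22130 CPM in control libraries, so the labelled cell type was present in each.

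A cytosolic ribosome joins a small subunit, which holds the mRNA and its decoding site, to a large subunit, which forms the peptide bond, and each subunit is built in the nucleolus from rRNA and a nearly fixed set of proteins. Most vertebrate ribosomal protein mRNAs start with a run of pyrimidines, the terminal oligopyrimidine (TOP) motif, through which mTOR signalling and Larp1 control their translation together. In the small intestine, ribosomes are made mainly in the dividing cells of the crypts, while villus enterocytes are the larger part of the epithelium.

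The coding sequences of this group differ in base composition, and base composition runs through the results below, so the first 75 coding bases on GRCm38 are shown for the pair with the highest and the pair with the lowest log2 fold change among members at 30 CPM or more in both groups whose libraries do not overlap between groups. They are written 5′ to 3′ on the coding strand with G and C in capitals.

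Rpl5: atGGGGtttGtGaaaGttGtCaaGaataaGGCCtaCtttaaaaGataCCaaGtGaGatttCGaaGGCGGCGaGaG
Rpl4: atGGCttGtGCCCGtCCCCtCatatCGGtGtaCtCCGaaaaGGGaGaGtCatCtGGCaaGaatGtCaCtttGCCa
Fau: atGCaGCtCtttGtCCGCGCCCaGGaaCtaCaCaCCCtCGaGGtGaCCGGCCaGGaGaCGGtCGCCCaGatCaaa
Rps16: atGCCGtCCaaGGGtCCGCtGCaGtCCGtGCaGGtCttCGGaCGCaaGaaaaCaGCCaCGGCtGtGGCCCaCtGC

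Rpl5 (chr5:107900502-107909005) and Rpl4 (chr9:64173375-64178666) had 42.7% and 52% G and C in these bases. Fau (chr19:6057844-6059524) and Rps16 (chr7:28350652-28353155) had 61.3% and 64%.

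The start of transcription carries the feature that the group is best known for, so 4 RefSeq start windows (GRCm38.p6, 45 bases before to 20 after the start) are shown with their longest run of C and T in capitals.

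Rpl4: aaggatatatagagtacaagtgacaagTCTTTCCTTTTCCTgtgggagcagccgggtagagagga
Rps6: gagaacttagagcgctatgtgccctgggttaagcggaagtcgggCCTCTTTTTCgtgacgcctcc
Fau: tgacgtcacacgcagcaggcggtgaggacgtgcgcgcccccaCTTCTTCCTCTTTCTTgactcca
Rplp2: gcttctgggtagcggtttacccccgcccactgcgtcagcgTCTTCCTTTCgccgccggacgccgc

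These windows lie at chr9:64173342-64173406 (plus strand), chr4:86857348-86857412 (minus strand), chr19:6057902-6057966 (plus strand) and chr7:141447606-141447670 (plus strand). The runs in capitals are 14, 10, 16 and 10 bases long, in Rpl4 and Rps6, whose levels were higher in the libraries labelled knockout, and in Fau and Rplp2, whose levels were lower. In Rps6, Fau and Rplp2 the run spans the RefSeq start. In Rpl4 it ends before that start, so under this annotation it lies outside the mRNA. A run of at least 8 pyrimidines on the sense strand within 50 bases of the start was found in 52 of the 66 members that have a RefSeq promoter, 78.8%, against 35.7% of 27025 promoters. It was present in 37 of 45 members called lower and in 3 of 6 called higher without correction. Such a run may lie wholly before or after the start, so it is not the same as a TOP start. Over 250 bases before to 50 after the start on both strands, CCGGAAG, a form of the motif of Ets family factors, was in 37.9% of member promoters and 9.12% of all. GGGCGG, a form of the Sp1 motif, was in 62.1% and 35.9%, AAGATGG, a form of the Yy1 motif, in 15.2% and 6.48%, and TATAAA, the TATA box, in 9.09% and 14.2%. A match is a description of the letters and not a bound site.

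At baseline, in the control libraries, the acidic stalk proteins of the large subunit, which recruit the translation GTPases, were among the highest members per length. Rplp1 stood at 4179 ± 1480 CPM per kilobase of coding transcript (SD, n = 3), Rplp0 at 3147 ± 609 and Rplp2 at 2613 ± 845 in control libraries. Rps29, a small zinc-binding protein of the small subunit, was at 3203 ± 971 and Rps15, whose tail reaches the decoding site, at 2500 ± 805 CPM per kilobase. These 5 formed the top of the order, and neighbours in it differed by less than the larger of their SDs. The order depends on the length used, as with the union of annotated exons Rplp2 had 566 CPM per kilobase and rank 25 in place of rank 4, while the other 4 held ranks 1 to 4. The median over the 83 tested members was 475 CPM per kilobase in the libraries labelled knockout and 682 in control libraries.

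At the low end, Rpl10l, Rpl39l and Rpl3l, paralogues known mainly from testis or muscle, had 0 to 4 reads in each of the 6 libraries and were not tested. Rpl24, of the large subunit, had 24, 18 and 22 reads in libraries labelled knockout and 5, 6 and 6 in control libraries. Rpl36al, a paralogue of Rpl36a, had 48, 32 and 21 reads in libraries labelled knockout and 40, 42 and 56 in control libraries. Rps10, a small subunit protein near the mRNA entry, had 212 to 219 reads in libraries labelled knockout and 342 to 541 in control libraries. The loci of Rpl24, Rps10 and Rpl36al, and that of Rpl13a, are overlapped on the same strand by another annotated gene (Gm28037, RPS10-NUDT3, Gm49383 and Gm45713). These overlapping genes had 0 or 1 read in every library. The sources used here do not say how reads in such overlaps were counted, and the levels of these 4 members are uncertain.

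Ribosomal proteins have many processed copies in the genome. Of the 86 members, 82 shared at least one 50-base word of their transcript with another gene, and 50 shared at least 50% of their words. Rps27 shared 98.65% of its words with Rps27rt, whose level was 0.41, 0.80 and 0.56 CPM in libraries labelled knockout and 4.81, 3.32 and 3.11 CPM in control libraries. Rps3 shared 2.96%. How reads with several places of origin were treated is likewise unknown, so the level of a member with many copies is less certain than that of Rps3 or Rpl4 (16.45%). The 302 genes with -ps or rt in a ribosomal protein symbol took 0.0044 ± 0.00082% of reads in libraries labelled knockout and 0.0095 ± 0.0012% in control libraries (SD, n = 3 each).

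Control library 1 stood apart in some of these copies, which were picked out after their values were seen. The pseudogene Gm8730 of Rplp0 had 12, 11 and 12 reads in libraries labelled knockout, and 10840, 23 and 36 reads in control libraries 1, 2 and 3. Another Rplp0 pseudogene, Gm9625, had 95, 83 and 103 reads in libraries labelled knockout and 4180, 150 and 149 in control libraries. Gm6472, a pseudogene of Rps7, had 23, 26 and 21 reads in libraries labelled knockout and 1160, 34 and 75 in control libraries. All 3 pseudogenes were therefore high in the same single library. They were the ones, of 15 copies with at least 300 reads in some library and 20% of a member's words, whose highest library was at least 10 times the median library. Rps7 itself was at 388, 351 and 471 CPM in libraries labelled knockout and at 421, 602 and 656 CPM in control libraries, lowest among controls in library 1. Rplp0, the parent of Gm8730 and Gm9625, was instead highest among controls in library 1, at 3263, 2549 and 2251 CPM in control libraries.

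As a share of all counted reads, the members took 3.75, 3.42 and 3.88% in libraries labelled knockout, against 5.48, 4.48 and 4.88% in control libraries. The means were 3.68 ± 0.24% in libraries labelled knockout and 4.95 ± 0.50% in control libraries (SD, n = 3 each), and the groups did not overlap. Without the 5 most abundant members (Rplp0, Rps3, Rps2, Rpsa and Rpl8) the means were 3.16 ± 0.20% in libraries labelled knockout and 4.005 ± 0.37% in control libraries. The ratio of large to small subunit reads was 1.193, 1.203 and 1.176 in libraries labelled knockout and 1.05, 1.10 and 1.14 in control libraries. In these bulk samples, fewer cells rich in ribosomal protein mRNA and less of this mRNA per cell cannot be told apart. The shares are of raw reads, without the correction described below, and how far GC content and length enter them was not tested.

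**Figure D1:**
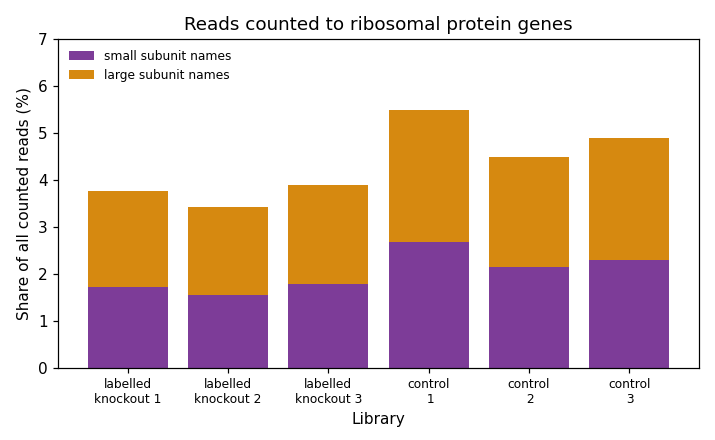
Share of all counted reads that fell in ribosomal protein genes, in percent, for each library, stacked by small and large subunit names. The 3 libraries labelled knockout lie between 3.42 and 3.88% and the 3 control libraries between 4.48 and 5.48%.

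The members, chosen by symbol, were put forward for their log2 fold changes between these 2 groups with and without correction, so the group differences were selected on and are a description, and nothing is read from how many were called. A call is an adjusted p below 0.05 over all tested genes in edgeR's quasi-likelihood test. Without correction, 57 of the 83 tested members were lower in the libraries labelled knockout and 7 higher, where 29.7% of all 15143 tested genes were lower and 37.2% higher. The median log2 fold change was -1.03 over members and 0.15 over all tested genes. Total count scaling moved these medians to -0.54 and 0.61, with 49 members lower and 11 higher, where 17.6% of all genes were lower and 43.3% higher. The libraries did not overlap between groups for 60 members that were lower and 7 that were higher (33.6% and 39% of all tested genes). Both counts of 7 include Rpl24. Its few reads passed the filter only through the libraries labelled knockout, so its call is no result.

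Fold changes in these libraries ran with the GC content of the gene. For each library, the log2 level of a gene was taken relative to its mean over the 6 libraries. Over all genes, this relative level changed per 10% of GC by -0.79, -0.89 and -0.64 in the libraries labelled knockout. In control libraries it changed by 0.96, 0.93 and 0.44. Slopes taken this way balance over the libraries, so they compare libraries with each other and give no trend of the levels themselves. Over members alone the slopes were -0.78, -0.60 and -0.55 in libraries labelled knockout and 1.12, 0.63 and 0.18 in control libraries. With correction of every library for GC content and length, 39 members were lower, 4 higher and 40 not called, where 15.6% of 15135 genes were lower and 14.3% higher. The corrected median was -0.63 over members and -0.02 over all genes. The libraries then did not overlap for 48 members that were lower and 6 that were higher (25% and 22.8% of all genes). The 6 again include Rpl24. The correction also takes away a true group difference that runs with GC content or length, and which of these values is nearer to the mRNA content of the cells was not tested.

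**Figure D2:**
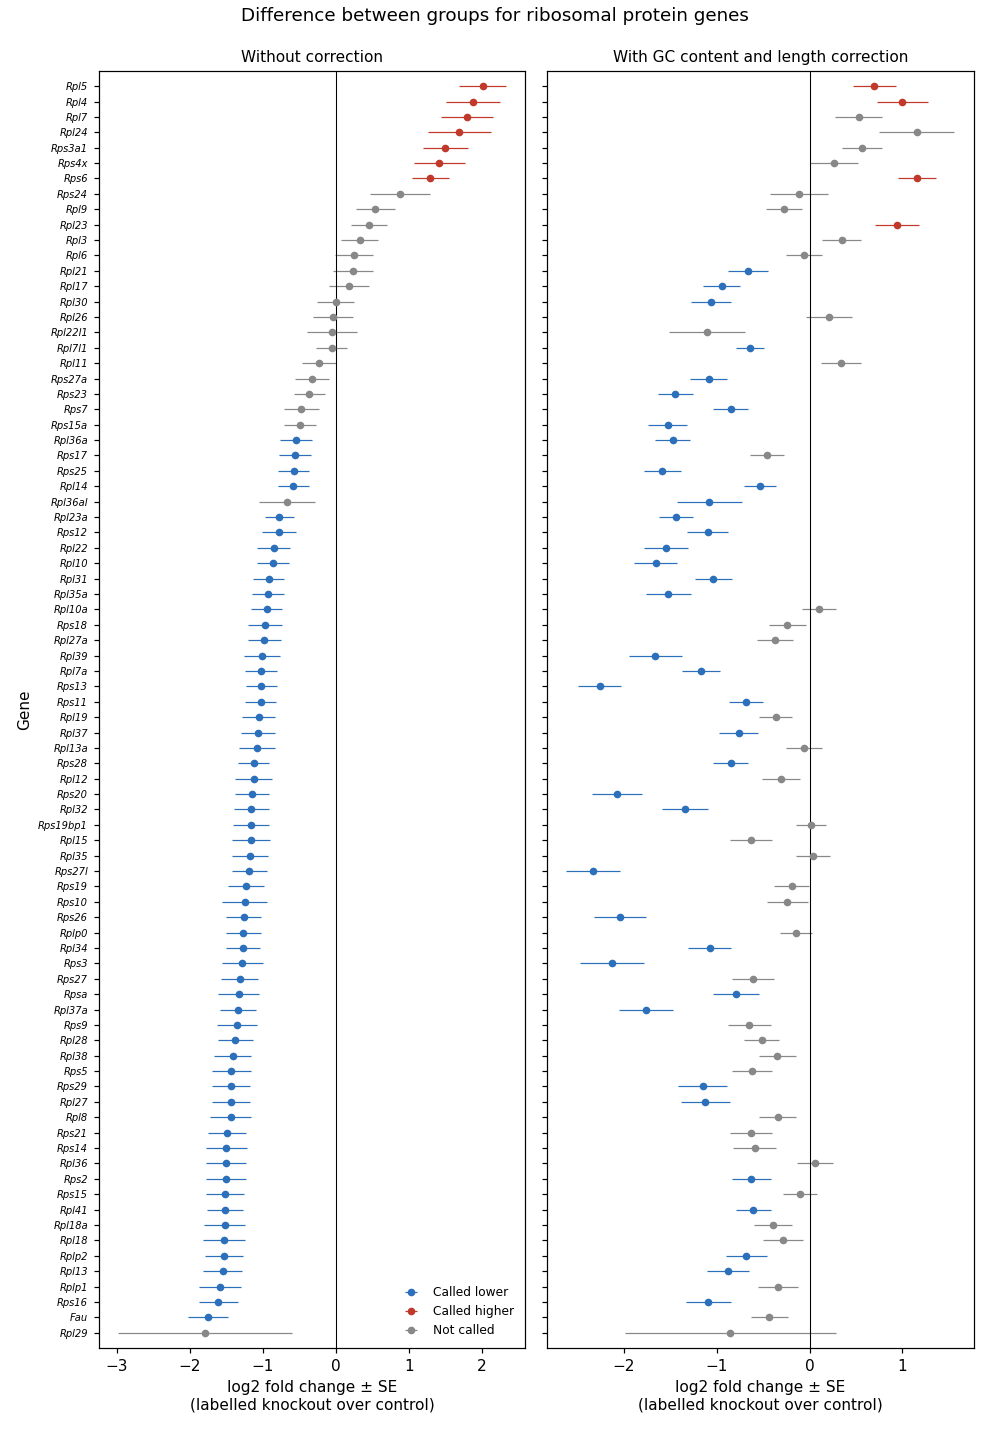
Log2 fold change (libraries labelled knockout over control libraries) with its SE for 82 of the 83 tested members, without correction on the left and with the GC content and length correction on the right. Members are in the order of the uncorrected values, blue marks members called lower, red those called higher and grey those not called; 57 are blue on the left and 39 on the right.

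The same counts can be given by subunit, beside 29.7% of all tested genes lower and 37.2% higher without correction and 15.6% and 14.3% with it. Of 34 small subunit names, 25 were lower and 3 higher (median -1.16), and 17 were lower and 1 higher with correction (median -0.64). Of 49 tested large subunit names, 32 were lower and 4 higher (median -0.98), and 22 were lower and 3 higher with correction (median -0.53). The 4 higher without correction include Rpl24, whose call is no result for the reason given above. Large subunit names called lower with correction numbered 13 without knockout library 1. Those called higher numbered 8 without control library 3 in the uncorrected fit, and in the corrected fit 1 without knockout library 1 or 2, 0 without control library 1 or 2 and 5 without control library 3. Small subunit names called higher with correction numbered 2 without control library 3. In these corrected fits, the share of all genes called lower was 7.26% without knockout library 1, and the share called higher was 7.54 and 9.05% without knockout library 1 and 2 and 12, 6.83 and 12.4% without control library 1, 2 and 3.

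In all, 30 members were lower with and without correction and 3 were higher in both (Rpl4, Rpl5 and Rps6). Another 27 were lower only without correction, among them Rplp0, Rplp1, Rpl8, Rps15 and Fau. A further 9 were lower only with it (Rpl17, Rpl21, Rpl30, Rpl36al, Rpl7l1, Rps15a, Rps23, Rps27a and Rps7). No member was called in opposite directions, and 9 were called in neither fit, among them Rpl11, Rpl29, Rpl3, Rpl9 and Rps24. For this joint reading of both fits, here and in the next sentence, no share of all tested genes is given. These counts therefore describe the members alone. The calls that were also kept without each library in turn, in both fits, numbered 18 for lower members (Rpl10, Rpl22, Rpl23a, Rpl31, Rpl32, Rpl34, Rpl35a, Rpl37a, Rpl39, Rpl7a, Rps13, Rps16, Rps20, Rps26, Rps27l, Rps28, Rps29 and Rps3) and 1 for higher members (Rps6).

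The stalk shows the pattern of members rich in G and C. Rplp0, the scaffold of the stalk, stood at 994, 1076 and 1273 CPM in libraries labelled knockout and at 3263, 2549 and 2251 CPM in control libraries. All 3 controls lay above all 3 libraries labelled knockout, and the log2 fold change was -1.27 (SE 0.24), or -0.15 (SE 0.18) with correction, where it was not called. Rplp1 stood at 599, 664 and 820 CPM in libraries labelled knockout and at 2930, 1765 and 1562 CPM in control libraries (-1.59, SE 0.28, corrected -0.34, SE 0.22, not called). Control library 1 was the highest for each of the 3 stalk genes. Rplp2 stood at 392.1, 386 and 434 CPM in libraries labelled knockout and at 1610, 976 and 933 CPM in control libraries, with -1.54 (SE 0.26) and a corrected value of -0.68 (SE 0.22), a call lost without any 1 of 5 libraries (each one labelled knockout and controls 1 and 3).

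Around the mRNA channel of the small subunit, Rps3, which lines the mRNA entry and also takes part in DNA repair, stood at 803, 818 and 1102 CPM in libraries labelled knockout and at 3047, 1906 and 1670 CPM in control libraries. The groups did not overlap, and the log2 fold change was -1.28 (SE 0.28), or -2.13 (SE 0.34) with correction. Rpsa, which also serves as a laminin receptor, stood at 731, 772 and 1016 CPM in libraries labelled knockout and at 2936, 1848 and 1552 CPM in control libraries (-1.33, SE 0.28, corrected -0.80, SE 0.25). Its corrected call was lost without knockout library 1 or 2 or control library 1 or 2. Rps16, which contacts the decoding site, stood at 235, 258 and 274 CPM in libraries labelled knockout and at 1097, 648 and 594 CPM in control libraries (-1.61, SE 0.27, corrected -1.09, SE 0.25). The coding start of Rps16, printed above, is the one richest in G and C of the 4 shown. Rps26, at the mRNA exit, stood at 336, 366 and 451 CPM in libraries labelled knockout and at 1126, 869 and 769 CPM in control libraries (-1.26, SE 0.24, corrected -2.04, SE 0.28). Rps20 and Rps13, both of the small subunit, had log2 fold changes of -1.15 (SE 0.24) and -1.02 (SE 0.21) and corrected ones of -2.07 (SE 0.27) and -2.26 (SE 0.23). For Rps20 and Rps13 the correction used GC contents of 47.3 and 46.6%, while their coding sequences have 49.0 and 52.3%. How far this enters their corrected values was not tested. For Rps15 the correction gave the smaller difference, with a log2 fold change of -1.52 (SE 0.26), or -0.10 (SE 0.19) with correction, where it was not called.

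Members made as ubiquitin fusions differed in their values. Fau, which joins a ubiquitin-like protein to Rps30, stood at 269, 301 and 305 CPM in libraries labelled knockout and at 1412, 807 and 736 CPM in control libraries. Its log2 fold change of -1.76 (SE 0.28) was the lowest of the members that were called, and with correction it was -0.43 (SE 0.20) and not called. Rps27a, fused to ubiquitin itself, stood at 331, 301 and 446 CPM in libraries labelled knockout and at 385, 448 and 522 CPM in control libraries, so that the groups overlapped. Its log2 fold change was -0.33 (SE 0.23), not called, and -1.08 (SE 0.20) with correction, called lower.

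The members that were higher form the other end. Rps6, whose protein is phosphorylated by the S6 kinases downstream of mTOR, stood at 326, 302 and 273 CPM in libraries labelled knockout and at 108, 93.6 and 168 CPM in control libraries. The groups did not overlap, and the log2 fold change was 1.29 (SE 0.25), or 1.16 (SE 0.20) with correction. Rpl4, with a loop that reaches into the peptide exit tunnel, stood at 998, 874 and 889 CPM in libraries labelled knockout and at 188, 142 and 424 CPM in control libraries. Its log2 fold change was 1.87 (SE 0.37), or 0.999 (SE 0.27) with correction. Control library 3 was the highest control for both genes, and the corrected call of Rpl4 was lost without knockout library 1 or 2 or control library 1 or 2.

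Rpl5 and Rpl11 hold the smallest rRNA of the large subunit and, when free, bind Mdm2, the inhibitor of p53, and the pair had unlike values here. Rpl5 stood at 323, 271 and 229 CPM in libraries labelled knockout and at 63.8, 40.1 and 101 CPM in control libraries, with no overlap. Its log2 fold change was 2.01 (SE 0.32), the highest of the members, and 0.70 (SE 0.23) with correction, a call that held only with all libraries or without control library 3. Rpl11 stood at 374, 397 and 416 CPM in libraries labelled knockout and at 419, 387 and 590 CPM in control libraries, so that the groups overlapped. Its log2 fold change was -0.23 (SE 0.23), or 0.34 (SE 0.21) with correction, called in neither fit. Rpl23, another Mdm2-binding protein of the large subunit, stood at 446, 433 and 490 CPM in libraries labelled knockout and at 286, 263 and 448 CPM in control libraries. It was not called without correction (0.46, SE 0.25) and was called higher with it (0.94, SE 0.24), a call lost without control library 1 or 2.

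Rpl7, Rps3a1 and Rps4x were higher without correction and not called with it. Rpl7, an RNA-binding protein of the large subunit, stood at 529, 428 and 318 CPM in libraries labelled knockout and at 109, 69.8 and 189 CPM in control libraries (1.79, SE 0.35, corrected 0.53, SE 0.25). Rps3a1, on the platform of the small subunit, stood at 456, 374 and 388 CPM in libraries labelled knockout and at 116, 93.5 and 222 CPM in control libraries (1.499, SE 0.31, corrected 0.56, SE 0.22). Rps4x, the X-linked small subunit protein, stood at 739, 667 and 604 CPM in libraries labelled knockout and at 198, 144 and 411 CPM in control libraries (1.42, SE 0.35, corrected 0.26, SE 0.26). Each of these 3 genes had groups that did not overlap, and control library 3 was the highest control each time. Rpl24 is the remaining one of the 7, but its few reads passed the filter only through the libraries labelled knockout, where it was higher, so its call is no result. Under a stricter filter, which removes it, 6 members were called higher.

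**Figure D3:**
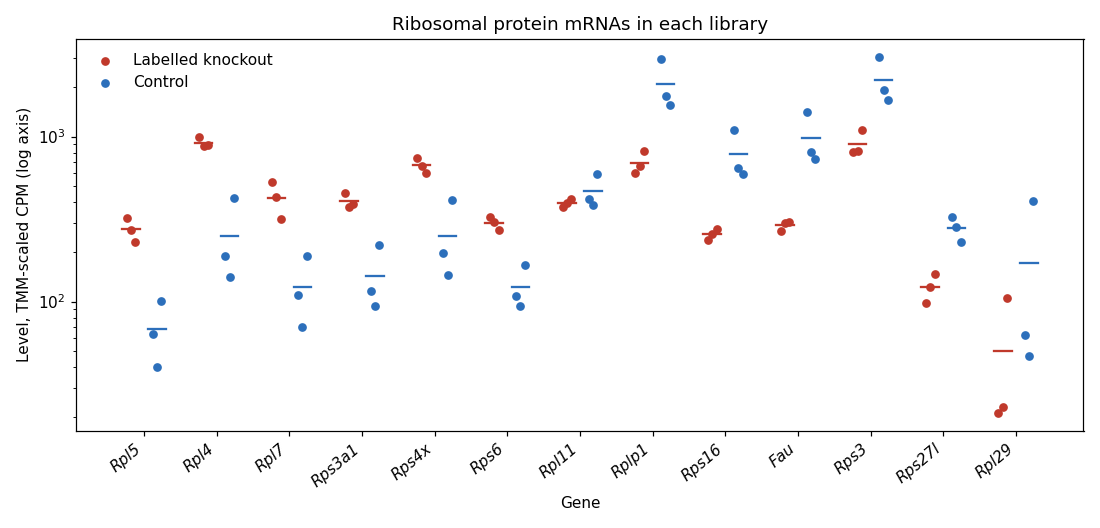
TMM-scaled CPM (log axis) of 13 members in each of the 6 libraries, red for libraries labelled knockout and blue for control libraries, with a line at the mean of each group. Rpl5, Rpl4, Rpl7, Rps3a1, Rps4x and Rps6 lie higher in every library labelled knockout, and Rplp1, Rps16, Fau, Rps3 and Rps27l lie lower; Rpl11 and Rpl29 overlap.

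Rpl10, Rpl22, Rpl41 and Rpl13 of the large subunit were lower in both fits. Rpl10, an X-linked protein that joins at the end of assembly near the peptidyl transferase centre, stood at 476, 472 and 597 CPM in libraries labelled knockout and at 1057, 870 and 882 CPM in control libraries (-0.86, SE 0.22, corrected -1.66, SE 0.23). Rpl22, which mouse T cells need for their development, stood at 250, 237 and 320 CPM in libraries labelled knockout and at 550, 463 and 448 CPM in control libraries (-0.86, SE 0.22, corrected -1.54, SE 0.24). Neither gene overlapped between groups. The Rpl22 paralogue Rpl22l1 stood at 64.2, 54.9 and 86.8 CPM in libraries labelled knockout and at 35.7, 84.1 and 93.5 CPM in control libraries, with overlap (-0.05, SE 0.34, corrected -1.11, SE 0.41, not called). Rpl41, the shortest of the ribosomal proteins, stood at 395, 476 and 450 CPM in libraries labelled knockout and at 1610, 1111 and 1070 CPM in control libraries (-1.52, SE 0.24, corrected -0.61, SE 0.19). Rpl13, of the large subunit, had -1.55 (SE 0.27) and a corrected value of -0.88 (SE 0.23). The corrected call of Rpl41 was lost without any library labelled knockout and without control library 1 or 3, and that of Rpl13 without knockout library 1 or 2.

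Paralogues within the group can be set beside each other. Rps27 and Rps27l encode near-identical zinc-binding proteins of the small subunit, and Rps27l is a p53 target gene. Their first 75 coding bases on GRCm38 are shown with the bases that differ in capitals, since these differences are what lets reads be told apart.

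Rps27: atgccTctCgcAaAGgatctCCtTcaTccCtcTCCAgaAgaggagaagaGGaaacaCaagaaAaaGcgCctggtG
Rps27l: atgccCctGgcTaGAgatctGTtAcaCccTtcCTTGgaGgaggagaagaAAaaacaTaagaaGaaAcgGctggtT

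Over 252 coding bases, 60 differed (76.2% identity), 22 of them in the stretch shown. Rps27 stood at 324, 318 and 387 CPM in libraries labelled knockout and at 1146, 781 and 641 CPM in control libraries (-1.32, SE 0.26, corrected -0.61, SE 0.23, not called). Rps27l stood at 98.05, 122 and 148 CPM in libraries labelled knockout and at 325, 285 and 228 CPM in control libraries (-1.19, SE 0.24, corrected -2.33, SE 0.29). Both were thus lower without correction, with no overlap, and with it Rps27l had the lowest value of all members. Rpl36a stood at 185, 186 and 235 CPM in libraries labelled knockout and at 274, 279 and 334 CPM in control libraries (-0.55, SE 0.21, corrected -1.48, SE 0.19), and its uncorrected call was lost without knockout library 1 or 2 or control library 2. Rpl36al had -0.67 (SE 0.38) and a corrected -1.08 (SE 0.35), called in the corrected fit alone and lost there without any 1 library. Rpl7l1 stood at 91.7, 104 and 97.2 CPM in libraries labelled knockout and at 90.8, 101 and 113 CPM in control libraries (-0.06, SE 0.21, corrected -0.64, SE 0.15), a corrected call lost without knockout library 1 or control library 2. Rps19bp1 stood at 17.0, 18.4 and 17.1 CPM in libraries labelled knockout and at 46.3, 39.8 and 31.3 CPM in control libraries (-1.16, SE 0.24), and with correction it was at 0.02 (SE 0.16) and not called.

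The base composition of members was set beside their values in 4 ranges of GC content. Of 16 members below 48% GC, 5 were lower and 4 higher (31.2% and 25%), where 2.85% of all 5012 genes of that range were lower and 75.3% higher. Their median was -0.03, against 1.59 for all genes of the range. The 26 members from 48 to below 52% had a median of -0.72, against 0.62 for all genes, the 26 from 52 to below 56% one of -1.33, against -0.62, and the 15 from 56% upwards one of -1.50, against -1.15. With correction the medians of these 4 ranges were -1.08, -1.06, -0.62 and -0.24 for members, against 0.18, 0.03, -0.15 and -0.12 for all genes. Of these medians, that of members below 48% GC was the nearest to 0 without correction, and with correction those of both ranges below 52% lay lower than those of both ranges above. With correction, 10 members below 48% GC were called lower (62.5%, against 12.8% of all genes of that range), and from 56% upwards 1 was (6.67%, against 7.74%).

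Across the 83 members, which share the same 6 libraries, the Spearman correlation of the log2 fold change with the GC content of the coding sequence was -0.76, and with its share of A it was 0.63. With correction the correlation was 0.17 with coding GC content, 0.43 with coding length and 0.39 with the median transcript GC content that the correction used. For Rps3 that median is 49.1%, while its coding sequence has 53.5%. The median length of member transcripts was 628 bases, against 1354 bases over all tested genes.

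**Figure D4:**
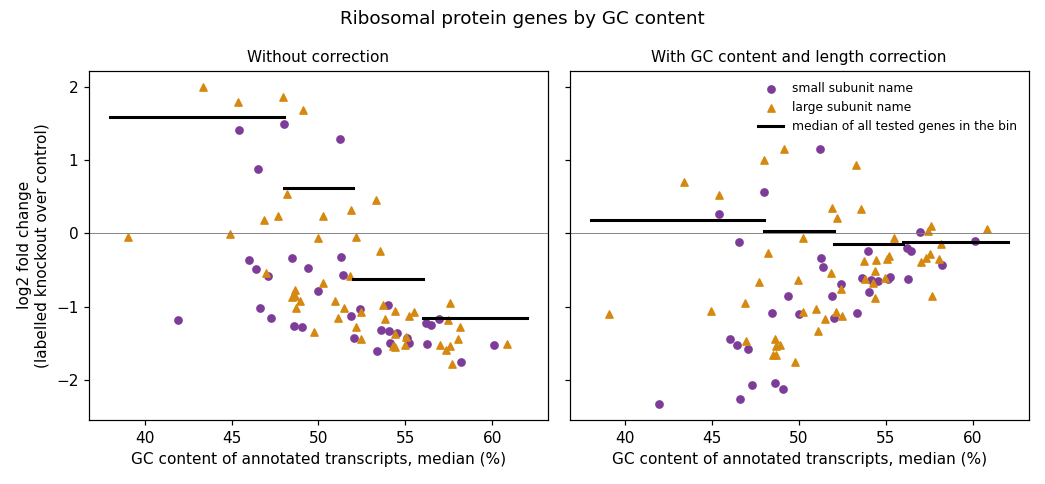
Log2 fold change (libraries labelled knockout over control libraries) of the 83 tested members against the median GC content of their annotated transcripts in percent, circles for small and triangles for large subunit names, without correction on the left and with it on the right. Black lines mark the median of all tested genes in the 4 ranges, which falls by range to -1.15 on the left; on the right the members below 48% have a median of -1.08 and spread widely, with Rpl5 and Rpl4 above 0.

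The spread among members within a library also differed between groups. Over 79 members with a mean of at least 30 CPM, the SD of the log2 level per kilobase was 1.014, 1.004 and 0.938 in libraries labelled knockout and 1.63, 1.46 and 1.15 in control libraries. The groups did not overlap, and control library 3 was the nearest control to the libraries labelled knockout. These levels are without the GC content and length correction, and how far GC content enters the spread was not tested.

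Control library 3 also differed from control libraries 1 and 2 in single members, a comparison inside 1 group that does not use the labels. Its level was over 1.5 times the mean of the other controls for 17 members and less than that mean divided by 1.5 for 11, with a median ratio of 0.874. Rps24, of the small subunit, stood at 615, 533 and 565 CPM in libraries labelled knockout and at 185, 184 and 564 CPM in control libraries, so that control library 3 was 3.05-fold above the other controls. The ratio was 2.57 for Rpl4, 2.40 for Rps4x, 2.11 for Rps3a1, 2.11 for Rpl7, 1.94 for Rpl5 and 1.66 for Rps6, and it was 0.775 for Rplp0, 0.681 for Rps16 and 0.663 for Fau. Across members, the Spearman correlation of this log2 ratio with coding GC content was -0.66. These ratios and the fold changes between groups use the same control libraries. Without that library, 12 members were called higher in place of 7, with 56 called lower, where 36.9% of all genes were higher and 30.2% lower.

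Rpl29, a large subunit protein also known for binding heparin, was the most variable member. It stood at 21.2, 22.9 and 106 CPM in libraries labelled knockout and at 62.6, 47.0 and 408 CPM in control libraries. Library 3 of each group was several-fold above the other libraries of that group, 19.2-fold lay between the lowest and the highest library, and the gene was called in neither fit (-1.79, SE 1.19, corrected -0.86, SE 1.14). The pseudogene Gm8210, which shares 42.97% of the words of Rpl29 and was looked up after these values were seen, had 121, 79 and 38 reads in libraries labelled knockout and 291, 176 and 0 in control libraries. In both groups library 3 was thus the highest for Rpl29 and the lowest for Gm8210. Of 84 genes that share words with Rpl29, the protein-coding gene Uimc1 shares the most (49.17%). Uimc1 had 878, 631 and 376 reads in libraries labelled knockout and 107, 86 and 134 in control libraries. For Uimc1, library 3 was the lowest of the libraries labelled knockout and the highest control.

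Lists of other genes of translation were set beside the shares of all tested genes, 29.7% lower and 37.2% higher without correction and 15.6% and 14.3% with it, and their difference from the members was not tested. Of 20 other TOP mRNAs and translation factors, 7 were lower and 10 higher (median 0.48), and 7 were lower and 2 higher with correction (median 0.11). Rack1, a scaffold on the small subunit, stood at 967, 997 and 1300 CPM in libraries labelled knockout and at 3872, 2387 and 2003 CPM in control libraries (-1.34, SE 0.29, corrected -1.76, SE 0.33). The elongation factor Eef2 had -1.37 (SE 0.29, corrected -0.21, SE 0.23, not called) and Tpt1, a growth-related TOP mRNA, -0.09 (SE 0.29, not called, corrected -1.05, SE 0.24, lower). Eef1a1, which brings aminoacyl-tRNA to the ribosome, stood at 3810, 3399 and 4059 CPM in libraries labelled knockout and at 1371, 1572 and 1603 CPM in control libraries. It was higher without correction (1.31, SE 0.22) and not called with it (0.32, SE 0.19), as was the poly(A)-binding protein Pabpc1 (1.77, SE 0.24, corrected 0.52, SE 0.23). Of 25 tested factors of initiation, elongation, termination and recycling outside that list, 8 were lower and 17 higher (median 1.43). With correction 4 were lower and 6 higher (median 0.13).

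For genes that build ribosomes the counts are read beside the same shares of all tested genes. Of 28 nucleolar assembly factors, 12 were lower and 14 higher (median 0.66), and 3 were lower and 9 higher with correction (median 0.23). Nucleolin (Ncl) had 1.51 (SE 0.28) and fibrillarin (Fbl), which methylates rRNA, -0.98 (SE 0.24). Nucleophosmin (Npm1), which is counted in the first TOP and translation list and not among the 28, had 1.62 (SE 0.30). None of these genes was called with correction (Ncl 0.14, SE 0.24, Npm1 0.15, SE 0.22, Fbl -0.01, SE 0.17). Of 15 genes of RNA polymerase I, which transcribes rRNA, 4 were lower and 8 higher (median 0.88), and 2 were lower and 4 higher with correction (median 0.27). Its largest subunit Polr1a had 0.88 (SE 0.22, corrected 0.46, SE 0.19, not called), while Polr1b (0.10, SE 0.24) and the factor Ubtf (-0.32, SE 0.21) were called in neither fit. Of 18 tested chaperones and quality control factors of ribosomal proteins, 6 were lower and 9 higher (median 1.11), and 2 were lower and 4 higher with correction (median 0.17). Of 12 tested snoRNA host genes, 4 were lower and 4 higher (median -0.19), and 5 were lower and 1 higher with correction (median -0.51). Gas5, a snoRNA host with a TOP start, had 0.79 (SE 0.26), a call lost without knockout library 3 or control library 2, and with correction it had -0.41 (SE 0.26) and was not called.

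Among 18 genes of growth signalling to ribosome synthesis, 8 were lower and 5 higher (median -0.51), and 2 were lower and 4 higher with correction (median -0.11). Mtor, the kinase that controls TOP mRNA translation, stood at 48.7, 48.2 and 53.4 CPM in libraries labelled knockout and at 20.7, 17.8 and 26.3 CPM in control libraries (1.21, SE 0.24, corrected 1.25, SE 0.20). Eif4ebp1, the mTOR substrate that restrains cap binding, stood at 12.6, 15.3 and 18.4 CPM in libraries labelled knockout and at 61.7, 47.2 and 44.3 CPM in control libraries (-1.73, SE 0.26, corrected -1.99, SE 0.26). Both calls were kept in both fits without each library in turn. Larp1, which binds the TOP start, had 0.44 (SE 0.22) and Myc, which drives ribosome synthesis, -0.47 (SE 0.24), and neither was called in either fit. With 1 library left out, counts in several of these 7 lists moved by over 1.5 times. Uncorrected lower genes of growth signalling numbered 4 without knockout library 1 or 2 and 5 without control library 2, and those of snoRNA hosts 2 without knockout library 1 or 2. Uncorrected higher snoRNA hosts numbered 2 without knockout library 3 or control library 2.

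The calls over all genes also fell in these fits. Uncorrected, 23.4, 24 and 25% of all genes were lower without knockout library 1, knockout library 2 and control library 2. Without knockout library 3 and control library 2, 36.3 and 31.1% were higher. With correction, the shares lower and higher both fell with any 1 library left out, as given below under the dependence on processing. In the corrected fit, higher nucleolar factors numbered 3, 4, 2 and 5 without knockout library 1, knockout library 2, control library 2 and control library 3 in this order. Higher genes of the first TOP and translation list numbered 0, 0, 1, 0 and 4 without knockout library 1, knockout library 3 and control libraries 1, 2 and 3, and lower ones 4 without knockout library 1 or 2. Factors of initiation, elongation, termination and recycling numbered 1 lower without knockout library 1, and 3 higher without knockout library 1 or control library 2. Higher genes of RNA polymerase I numbered 2 without knockout library 1 or control library 2, and those of growth signalling 2 without either of these or control library 3. Chaperones and quality control factors numbered 1 lower without knockout library 1 or control library 2, and 2 higher without knockout library 1 or 2 or control library 2. Higher snoRNA hosts numbered 0 without knockout library 1 or 2 or control library 2 or 3.

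Markers of cell types differed between the groups beside the members. The 10 villus enterocyte markers summed to 13660, 15240 and 15340 CPM in libraries labelled knockout and to 45440, 36000 and 31950 CPM in control libraries, with 5 of 10 lower and 2 higher (median -0.63), or 6 and 0 with correction (median -0.85). The 10 crypt and cycling markers summed to 1695, 1572 and 1799 CPM in libraries labelled knockout and to 906, 664 and 716 CPM in control libraries, with 3 lower and 4 higher (median 0.97), or 1 and 3 with correction (median 0.03). The 10 T lymphocyte markers summed to 2977, 1945 and 495 CPM in libraries labelled knockout and to 676, 1647 and 1043 CPM in control libraries, with 1 of 10 higher in both fits (medians 0.54 and 0.03). Villus and crypt sums did not overlap between groups, while T lymphocyte sums did. The 8 B lymphocyte and plasma cell markers summed to 186 to 397 CPM in libraries labelled knockout and to 370 to 545 CPM in control libraries, and the 8 macrophage and dendritic markers to 35.8 to 78.6 and to 15.8 to 49.7 CPM. Markers of fibroblasts and smooth muscle summed to at most 10.3 CPM, of endothelium to at most 5.87 CPM (Emcn at 0 in every library) and of erythrocytes to 6.37 to 30.5 CPM in libraries labelled knockout and 52.7 to 75.3 CPM in control libraries. The part of cell composition in the differences of ribosomal protein genes was not tested.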

How the data were processed

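For the 6 libraries the authors deposited raw counts of reads per gene, a normalised signal and regularised log2 values. Per the submitters' processing notes, the tools named are STAR 2.6.1c, Subread 1.6.1, SAMtools 1.8, FastQC 0.11.8 and cutadapt 1.18, and the build is GRCm38 (mm10); how the tools were set is not stated. The deposited signal equals counts divided by DESeq2 size factors, a check by recomputation. In the deposited log2 values, 63 members were lower and 7 higher with groups that do not overlap, against 35.8% and 37% of all tested genes. No library pair was alike enough in its counts to be one library sequenced again (chi-square of at least 69.9 per degree of freedom).

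Groups were taken from the strain label, and replicate numbers follow accession order. Counts were filtered with filterByExpr (minimum count 10, total 15) and fitted with edgeR 4.0.16 (TMM, robust quasi-likelihood test, Benjamini-Hochberg over 15143 genes, threshold 0.05) in R 4.3.3, and the steps were tested on simulated data. Standard errors are the log2 fold change divided by the root of F. In the correction, natural splines with 6 degrees of freedom for GC content and 5 for log2 length, as medians over GENCODE M21 transcripts, were fitted to each library's log2 CPM (prior count 2) and used as an offset. Alternatives included DESeq2 1.42.0 and limma 3.58.1. Promoters came from RefSeq, which matched 66 members.

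The members, gene lists and rules were chosen with earlier results of these data known. Members named were those of known role, paralogue pairs, and the 5 highest and lowest by level per kilobase and by each fold change. Rpl3, Rpl6, Rpl8, Rpl9, Rpl13a, Rpl17, Rpl26, Rps2, Rps7, Rps24 and others outside that rule were named after their values were seen. Some genes are not reported here. Strand and multi-mapping settings limit genes with copies.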

Additional observations from a re-analysis of the deposited data

How the results depend on the processing

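Without correction, 57 members were called lower and 7 higher, Rpl24 among the 7, with a median log2 fold change of -1.03. These 3 values rest mainly on the handling of GC content, length and scaling. The GC content and length correction gave 39 lower members, 4 higher and a median of -0.63. Fitting that correction without the members gave 39, 4 and -0.63. GC content alone gave 51 lower members, 3 higher and -0.79, where 2411 of 15135 genes were lower and 2250 higher. Length alone gave 53 lower members, 7 higher and -0.94, where 5235 of 15135 genes were lower and 4671 higher. Taking GC content and length from protein-coding transcripts, an alternative chosen after seeing the data, gave 35 lower members and a median of -0.46. There 2294 of 15135 genes were lower. Total count scaling gave 11 higher members and a median of -0.54, as it moved the median of all genes to 0.61. Without 1 library, 52 to 58 members were lower and 7 to 12 higher (12 without control library 3), with medians from -1.16 to -0.86. Without knockout library 1, 2 and 3, 23.4, 24 and 27.9% of all genes were lower and 33.9, 32.7 and 36.3% higher. Without control library 1, 2 and 3, 25.6, 25 and 30.2% were lower and 33.5, 31.1 and 36.9% higher. With the correction as well, the lower members numbered 26, 28 and 37 without knockout library 1, 2 and 3 and 34, 33 and 35 without control library 1, 2 and 3. In the same order 7.26, 9.27, 14.6, 12.6, 9.9 and 13.4% of all genes were lower, against 15.6% with all libraries. The higher members numbered 2, 2, 3, 1, 1 and 7, where 7.54, 9.05, 12.9, 12, 6.83 and 12.4% of all genes were higher, and the medians were -0.55, -0.58, -0.71, -0.43, -0.73 and -0.72. The difference in the share of reads (-1.26 percentage points) ranged from -1.50 to -0.996. Exon unions in place of transcript lengths moved the median control level from 682 to 282 CPM per kilobase. Other scalings, filters, tests and thresholds kept all 3 values within 1.5 times or within the spread between libraries.

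Some single genes changed sign. With the correction, Gas5 was at -0.41, or -0.67 for GC content alone, -0.41 fitted without members, -0.23 from protein-coding transcripts and, without 1 library in the order above, -0.35, -0.19, -0.70, -0.54, -0.39 and -0.26. Rps19bp1 was at 0.015, or 0.0025 fitted without members and 0.021 to 0.037 without knockout library 1 or 3 or control library 1 (0.029 without knockout library 3). Fbl was at 0.17 from protein-coding transcripts and at 0.016, 0.083 and 0.061 without knockout library 1, knockout library 2 and control library 1, and Polr1b at -0.73 from protein-coding transcripts. Without 1 library and with the correction, Rpl11 was at 0.59, Rps15 at 0.0058 and Ncl at -0.041. The cause was not tested. No paired analysis was possible because the labels carry no replicate numbers. Members with few reads, such as Rpl24, are limited by depth.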
